A study of Mus with 18 samples.

Results

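The genes described here are the nuclear receptors Nr4a1 (ENSMUSG00000023034), Nr4a2 (ENSMUSG00000026826) and Nr4a3 (ENSMUSG00000028341) and the immediate early response genes Ier2 (ENSMUSG00000053560) and Ier3 (ENSMUSG00000003541). They were picked by Ensembl ID as early-response genes, and make up 5 of the 55416 gene IDs counted, of which 35202 had a count in any library. All 5 had counts in each of the 18 libraries of mouse lens epithelial cells (LECs). In every genotype all 5 genes were higher 6 h after the lens fiber mass had been taken out by surgery than at 0 h, by 3.58-fold to 22.0-fold. The differences tested between genotypes were smaller, up to 3.47-fold. Nr4a2 had too few read pairs at 0 h for a test of Egr1KO there. In the main fit no gene's change from 0 h to 6 h was called different between genotypes.

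Nr4a1, Nr4a2 and Nr4a3 encode orphan nuclear receptors, transcription factors with the fold of a hormone receptor but a ligand pocket largely filled by their own side chains. Their activity is therefore thought to follow mainly from how much of each protein is made, and their genes are transcribed within minutes of growth factor, stress or inflammatory signals without new protein synthesis. Ier2 and Ier3 belong to the same class of immediate early genes but not to a common protein family. IER2 is a nuclear protein linked to transcription and cell motility, and IER3 is a short-lived protein that modulates cell death, ERK and NF-kB signaling. EGR1 (a zinc finger protein) and FOSB (a subunit of AP-1) are immediate early transcription factors themselves, so the design asks how such genes respond to lens injury when either factor is missing.

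The series holds 6 groups of 3 libraries. Wild type (WT), Egr1KO and FosBcKO lens capsules, on a strain labelled C57BL/6 and from mice of 3 to 5 months, were collected at 0 h and 6 h post cataract surgery (PCS), each library from a pool of 5 capsules. Egr1KO mice carry a germline Egr1 allele truncated by a neo cassette, whose stock the study's methods place on a mixed background. FosBcKO mice carry floxed Fosb alleles deleted by Cre from the MLR10cre transgene, which a modified alpha-A crystallin promoter drives in the lens, so that the deletion is limited to the lens. Whether the WT mice carried floxed alleles or Cre is not given in the sources used here. In each mouse the second eye was operated 6 h after the first and both capsules were then harvested, so a 0 h capsule comes from a mouse whose other eye had been injured 6 h before. Nothing states that the pools of a group came from separate litters or days, and the p-values measure the spread between these pools. In bulk RNA, fewer cells of a type and less RNA per cell cannot be told apart.

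Each library had 9609295 to 13871592 read pairs assigned to genes. Levels below are in CPM, a gene's count per 1000000 of these pairs. CPM levels, and overlaps judged from them, leave out the scaling factors between libraries (TMM) that the tests apply. Over the 18 libraries these factors ran from 0.898 to 1.14. The deposited tables carry no gene names and only the 5 genes were identified, so the targeted genes and the markers of lens and other cell types are not analysed here, and Egr1KO and FosBcKO name the libraries so labelled. Pairs falling outside annotated genes made up 8.03% to 20.9% of a 0 h library and 20.0% to 30.5% of a 6 h library, a difference that moves with time and whose part in the changes below was not tested. At 0 h this share was 9.09% to 13.5% in Egr1KO and 15.2% to 19.8% in WT libraries. No libraries held identical counts.

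The first question was how the genes respond to injury in WT LECs. Nr4a1 had 34.5, 28.6 and 34.1 CPM in the WT 0 h libraries and 289, 322 and 239 CPM in the WT 6 h libraries. It was 8.18-fold higher at 6 h, a log2 fold change of 3.03 (SE 0.20, FDR = 0.000628, edgeR quasi-likelihood F-test, n = 3 per group), and had the third lowest p-value of the 15440 genes tested. Nr4a2, best known from midbrain dopamine neurons, was the least counted of the 5. It had 0.574, 1.16 and 0.973 CPM at 0 h (6, 13 and 10 read pairs) and 7.16, 9.58 and 6.48 CPM at 6 h (76, 95 and 68 read pairs). It rose 7.91-fold (log2 2.98, SE 0.44, FDR = 0.00298), and even its highest 0 h library stayed far under its lowest 6 h library. Nr4a3, a relative that binds the same DNA element, had 9.38, 8.18 and 10.2 CPM at 0 h and 38.8, 36.0 and 31.9 CPM at 6 h, a 3.58-fold rise (log2 1.84, SE 0.20, FDR = 0.00136). The rise of Nr4a3 was the smallest of the 5 in WT, and for each receptor the lowest 6 h library lay well above the highest 0 h library.

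Both Ier genes had larger folds than any receptor in WT, although only the interval of Nr4a3 (1.39 to 2.29) lay apart from those of Ier2 (2.66 to 3.82) and Ier3 (2.42 to 4.50). Ier2 had 21.4, 12.3 and 16.4 CPM in the WT 0 h libraries and 207, 127 and 178 CPM at 6 h, 9.46-fold higher (log2 3.24, SE 0.25, FDR = 0.000826). Ier3 had 4.12, 1.96 and 1.26 CPM at 0 h and 29.5, 18.04 and 40.8 CPM at 6 h, 10.98-fold higher (log2 3.46, SE 0.45, FDR = 0.00224). For Ier3, WT replicate 3 was the lowest library at 0 h and the highest at 6 h. A gene was called a differentially expressed gene (DEG) when its Benjamini-Hochberg false discovery rate (FDR) over all genes tested was at most 0.05 and its change exceeded 2-fold. By this rule 5 of 5 genes were called higher in WT, where 13.5% of all genes tested were called higher. Their median log2 fold change was 3.03 and that of all genes tested was -0.02. In all 5 the WT libraries of the 2 times did not overlap, which held upward for 28.2% of genes. None of these calls was lost under any alternative tried or without any library.

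**Figure D1:**
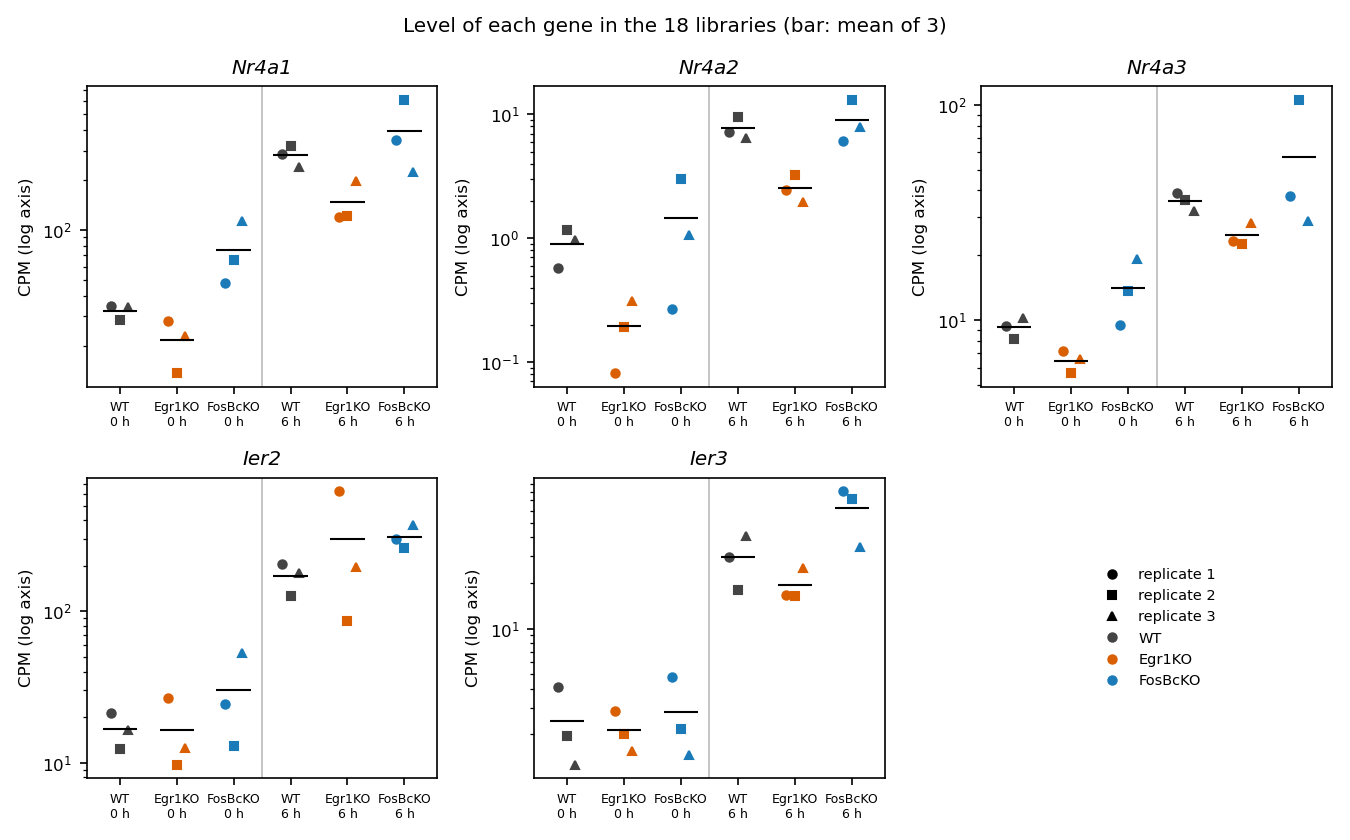
Level of each gene in the 18 libraries, in CPM on a log axis, by genotype and time, with a symbol for each replicate and a bar at the mean of 3. The 6 h libraries lie above the 0 h libraries of the same genotype in all 5 panels; 1 Egr1KO 6 h library stands apart for Ier2 at 624 CPM.

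In the Egr1KO libraries all 5 genes were again higher at 6 h. Nr4a1 had 28.1, 13.6 and 23.0 CPM at 0 h and 119, 122 and 198 CPM at 6 h, a 7.05-fold rise (log2 2.82, SE 0.34, FDR = 0.00306). Nr4a3 went from 7.18, 5.66 and 6.56 CPM to 23.4, 22.6 and 28.3 CPM, a 3.98-fold rise (log2 1.99, SE 0.23, FDR = 0.00231). The intervals of both folds overlap those of WT. Ier3, with 2.86, 2.02 and 1.56 CPM at 0 h and 16.7, 16.5 and 25.0 CPM at 6 h, rose 9.35-fold (log2 3.22, SE 0.34, FDR = 0.00157).

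Nr4a2 and Ier2 were measured less precisely in Egr1KO. Nr4a2 was represented by 1, 2 and 3 read pairs at 0 h (0.0816, 0.192 and 0.312 CPM) and by 25, 45 and 21 at 6 h (2.47, 3.24 and 1.98 CPM). Summed over the libraries and scaled by their totals, 91 against 6 pairs is a ratio of 14.2 (95% exact interval 6.26 to 39.6, counting error only), and the fitted log2 fold change was 3.73 (SE 0.71, FDR = 0.0115). This call rested on all 3 of the 0 h libraries, since FDR was 0.0557, 0.0531 and 0.051 without replicate 1, 2 and 3. Ier2 had 26.9, 9.70 and 12.5 CPM at 0 h and 624, 86.7 and 197 CPM at 6 h, a 19.6-fold rise (log2 4.29, SE 0.80, FDR = 0.0123). The 6 h library with 624 CPM is replicate 1, in which the 10 most abundant genes took 24.6% of gene pairs, the highest share of the 18 libraries, and whose part in this level was not tested. Without it the log2 fold change of Ier2 was 3.14 (FDR = 0.016), and without the 0 h replicate 3 the call was lost (FDR = 0.0611), as it was with no filter on low counts (FDR = 0.089). In all, 5 of 5 genes were called higher in Egr1KO against 9.28% of the 14586 genes tested, with a median log2 fold change of 3.22 against 0.00 over all genes. None of the 5 overlapped between times, against 18.1% of genes upward.

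FosBcKO libraries gave the same direction, and all 5 genes had larger standard errors than in WT. Nr4a1 had 47.6, 65.8 and 113 CPM at 0 h and 348, 610 and 224 CPM at 6 h, 5.27-fold higher (log2 2.40, SE 0.51, FDR = 0.0209). Its levels ranged widely at both times. Nr4a2 had 0.268, 3.01 and 1.07 CPM at 0 h and 6.10, 13.1 and 7.91 CPM at 6 h, 6.46-fold higher (log2 2.69, SE 0.69, FDR = 0.0243). Nr4a3 had 9.46, 13.7 and 19.1 CPM at 0 h and 37.7, 106 and 29.0 CPM at 6 h, 4.18-fold higher (log2 2.06, SE 0.59, FDR = 0.0498). Replicate 2 at 6 h was the highest library of the series for all 3 receptors. Replicate 3 held the highest 0 h value and the lowest 6 h value of Nr4a1 and Nr4a3 within FosBcKO.

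Ier2 had 24.4, 13.0 and 53.3 CPM in the FosBcKO 0 h libraries and 301, 262 and 371 CPM at 6 h, 10.1-fold higher (log2 3.34, SE 0.52, FDR = 0.00971). Ier3 had 4.82, 2.18 and 1.45 CPM at 0 h and 80.6, 71.9 and 34.4 CPM at 6 h, 22.0-fold higher (log2 4.46, SE 0.50, FDR = 0.00305). This was the largest fold among the 15 changes from 0 h to 6 h. All 5 genes were called higher, against 11.2% of the 15475 genes tested, with a median log2 fold change of 2.69 against 0.05 over all genes, and their libraries did not overlap (22.8% of genes upward).

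Most of the FosBcKO calls depended on single libraries. Nr4a1 was not called without 0 h replicate 2 (FDR = 0.0723) or 6 h replicate 1 (FDR = 0.12), and its log2 fold change was 1.80 without 6 h replicate 2. Nr4a2 was not called without 0 h replicate 3 (FDR = 0.0912) or 6 h replicate 2 (FDR = 0.0832), and its log2 fold change was 3.69 without 0 h replicate 2. Nr4a3, at FDR = 0.0498, was the nearest to the threshold. Its call was lost with RLE size factors (FDR = 0.0531) and with no filter on low counts (FDR = 0.226). It was also lost without any of the 0 h replicates (FDR = 0.117, 0.143 and 0.0792) or 6 h replicate 1 (FDR = 0.123), and its log2 fold change was 1.14 without 6 h replicate 2. With no filter, Nr4a1 (FDR = 0.12) and Ier2 (FDR = 0.056) were not called either. Nr4a1 (FDR = 0.123) and Nr4a3 (FDR = 0.133) also lost the call in the quasi-likelihood F-test with the replicate number as a block. Ier2 lost the call without 6 h replicate 1 (FDR = 0.0725), and its log2 fold change was 4.02 without 0 h replicate 3. Ier3 kept the call without each library, with a log2 fold change of 5.08 without 0 h replicate 1.

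Fitted over all 18 libraries, the change averaged over the genotypes was called for 5 of 5 genes, where 19.3% of 17469 genes were called higher. The mean log2 changes were 2.76 for Nr4a1 (SE 0.25, FDR = 1.28e-06), 3.15 for Nr4a2 (SE 0.38, FDR = 5.41e-06) and 1.97 for Nr4a3 (SE 0.24, FDR = 8.54e-06). They were 3.63 for Ier2 (SE 0.41, FDR = 1.14e-05) and 3.72 for Ier3 (SE 0.28, FDR = 1.16e-07). The median over the 5 was 3.15 and over all genes 0.08, and none of these calls was lost under any alternative tried or without any library.

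**Figure D2:**
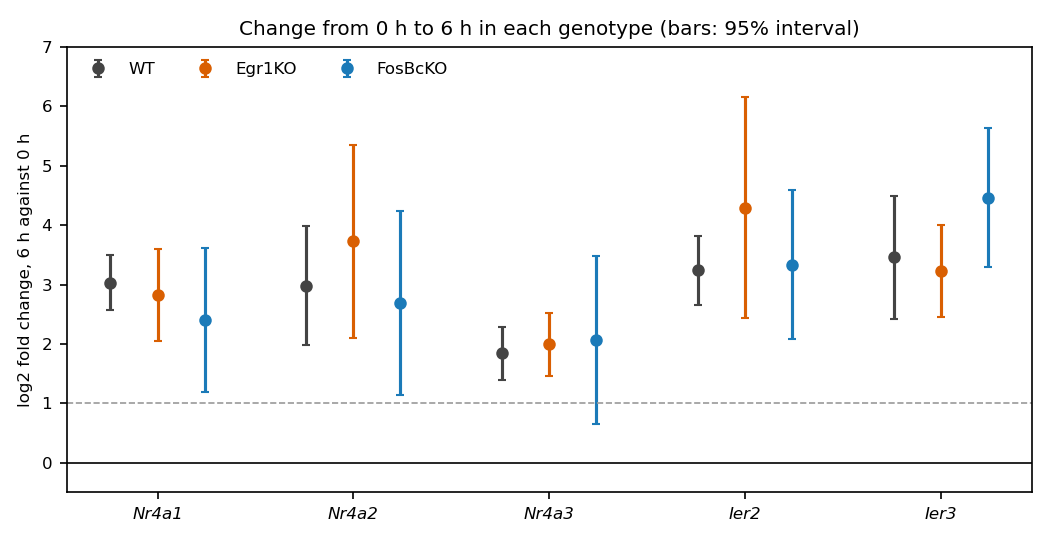
Log2 fold change from 0 h to 6 h of each gene in WT, Egr1KO and FosBcKO, with 95% intervals from the quasi-likelihood fit; the dashed line marks a 2-fold rise. All 15 changes are above 0, Nr4a3 has the smallest in each genotype (1.84, 1.99 and 2.06), and the 3 intervals of each gene overlap.

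Whether the response itself differed between genotypes was tested as the difference between 2 changes from 0 h to 6 h, in the fit over 18 libraries. With the filter on low counts, no gene of the 5 was called in any of the 3 comparisons by edgeR or DESeq2. None had an unadjusted p under 0.05 in the main edgeR fit. Over all 17469 genes, 0% were called for Egr1KO against WT, 0% for FosBcKO against WT and 0.00572% for Egr1KO against FosBcKO, so that 1 gene in all, none of the 5, passed this test. The lowest p by the quasi-likelihood F-test over 18 libraries was that of Ier3, whose rise in Egr1KO was smaller than in FosBcKO by 1.20 on the log2 scale (95% interval of the difference -2.60 to 0.19, FDR = 1). For Ier3 in FosBcKO against WT the difference was 0.95 (-0.43 to 2.33). For Nr4a1 it was -0.24 (-1.47 to 0.99) in Egr1KO against WT and -0.69 (-1.91 to 0.53) in FosBcKO against WT. For Nr4a3 it was 0.13 (-1.07 to 1.33) and 0.16 (-1.03 to 1.35). The intervals of Nr4a2 reached from -1.21 to 2.67 for Egr1KO against WT and from -2.09 to 1.39 for FosBcKO against WT, and so include changes of more than 2-fold in either direction. So do those of Nr4a3, of Ier3 in Egr1KO against WT (-1.66 to 1.15) and of Ier2 in FosBcKO against WT (-1.95 to 2.02). Ier2 in Egr1KO against WT stood at 1.03 (-0.96 to 3.01) and fell to -0.08 without Egr1KO 6 h replicate 1. With no filter on low counts this 1 difference was called (1.09, FDR = 0.0284).

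Genotypes were next compared at 0 h by edgeR's exact test, with intervals from the quasi-likelihood fit. In Egr1KO, 4 of the 5 genes passed the filter on low counts, and none was called against WT, where 0.41% of 14373 genes were called (1 of 4 had an unadjusted exact p under 0.05, and DESeq2 and the quasi-likelihood F-test called 0). The 3 receptor genes were lower than WT in every Egr1KO library, a pattern that 9.32% of genes showed. Nr4a1 differed by -0.55 on the log2 scale (95% interval -1.08 to -0.02, exact p = 0.0445, FDR = 0.747), and its nearest libraries were close, at 28.1 CPM in Egr1KO and 28.6 CPM in WT. Nr4a3 differed by -0.49 (-1.06 to 0.08, FDR = 0.92). Nr4a2 did not pass the filter, and its 6 read pairs in Egr1KO against 29 in WT gave a ratio per total of 0.205 (95% exact interval 0.0696 to 0.502, counting error only). Ier2 and Ier3 overlapped between Egr1KO and WT at 0 h, with log2 differences of -0.00 (-0.95 to 0.96) and -0.16 (-1.40 to 1.07). The median over the 4 genes was -0.33 and over all genes 0.01.

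FosBcKO 0 h libraries showed no call against WT among the 5 genes (0.295% of 14556 genes were called), although 1 of 5 had an unadjusted exact p under 0.05. This was Nr4a1, at 75.6 ± 34.0 CPM (SD, n = 3) in FosBcKO and 32.4 ± 3.26 CPM in WT. It was 2.35-fold higher (log2 1.23, 95% interval 0.34 to 2.12, FDR = 0.127) and higher in each FosBcKO library than in any WT library, as were 7.63% of genes. The call turned on the processing, since DESeq2 called it (FDR = 0.00128), as did the exact test without robust dispersions (FDR = 0.0225) or without FosBcKO 0 h replicate 1 (log2 1.49, FDR = 0.000132), while the quasi-likelihood F-test called 0 of 5 and the log2 difference was 0.79 without FosBcKO 0 h replicate 3. The differences of Nr4a3 (0.61, -0.01 to 1.23), Nr4a2 (0.65, -1.23 to 2.52), Ier2 (0.88, -0.68 to 2.43) and Ier3 (0.19, -1.16 to 1.55) had overlapping libraries. That of Nr4a2 was -0.41 without FosBcKO 0 h replicate 2, and that of Ier2 was 0.15 without replicate 3. The median was 0.65 over the 5 and -0.01 over all genes.

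Set against each other at 0 h, the knockouts differed in Nr4a1 and Nr4a3. Of the 4 genes tested, 2 were called lower in Egr1KO than in FosBcKO, where 0.734% of 14167 genes were. Nr4a1 was 3.47-fold lower (log2 -1.80, SE 0.48, FDR = 0.015, exact test) and Nr4a3 was 2.16-fold lower (log2 -1.11, SE 0.30, FDR = 0.0459), with no overlap of libraries in either, as in 8.77% of genes downward. Pairs outside genes made up 9.09% to 13.5% of an Egr1KO 0 h library and 8.03% to 20.9% of a FosBcKO 0 h library, and the part of this in the difference was not tested. The quasi-likelihood F-test called neither (FDR = 0.363 and 0.147). The Nr4a1 call was lost without Egr1KO 0 h replicate 2 (FDR = 0.0614) or 3 (FDR = 0.163). That of Nr4a3 was lost without any Egr1KO replicate (FDR = 0.107, 0.221 and 0.219) or without FosBcKO replicate 2 (FDR = 0.072) or 3 (FDR = 0.416). Nr4a2 failed the filter, with 6 read pairs in Egr1KO and 43 in FosBcKO, of which 29 came from replicate 2, and its libraries overlapped. The ratio per total of these pairs was 0.135 (95% exact interval 0.0469 to 0.318, counting error only). Ier2 (-0.89, -2.82 to 1.07) and Ier3 (-0.37, -1.58 to 0.84) were not called. The median over the 4 was -0.998 and over all genes -0.01. The 3 comparisons of a time share their libraries pairwise, so they are not separate evidence of a direction.

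At 6 h none of the 5 genes was called between Egr1KO and WT, where 0.736% of 15618 genes were called (2 of 5 had an unadjusted exact p under 0.05, and DESeq2 and the quasi-likelihood F-test called 0). In CPM the receptors were again lower in every Egr1KO library, as were 13.8% of genes. The TMM factors over 18 libraries were 0.905 for Egr1KO 6 h replicate 3 and 1.14 for WT 6 h replicate 3. Divided by these factors, Nr4a1 and Nr4a3 overlapped between the groups and Nr4a2 did not. Nr4a2 had 2.57 ± 0.638 CPM in Egr1KO and 7.74 ± 1.63 CPM in WT, a log2 difference of -1.39 (95% interval -2.28 to -0.51, FDR = 0.144). Nr4a1 had 146 ± 45.0 CPM and 283 ± 41.9 CPM, a difference of -0.74 (-1.40 to -0.07, FDR = 0.386). Nr4a3 differed by -0.31 (-0.81 to 0.19, FDR = 0.815) and Ier3, with overlapping libraries, by -0.36 (-1.08 to 0.36, FDR = 0.842). Ier2 differed by 1.09 (-0.38 to 2.55, FDR = 0.61). Its value was set by single libraries, since it was -0.04 without Egr1KO 6 h replicate 1 and 1.55, then called (FDR = 0.0277), without replicate 2. The median was -0.36 over the 5 and 0.03 over all genes.

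FosBcKO and WT were then compared at 6 h. Ier3 had 62.3 ± 24.6 CPM in FosBcKO and 29.4 ± 11.4 CPM in WT, and was the only call among the 5 at 2.34-fold (log2 1.23, SE 0.35, FDR = 0.0276), where 4.48% of 16155 genes were called higher. Its libraries overlapped, with 34.4 CPM in the lowest FosBcKO and 40.8 CPM in the highest WT library. The call was lost without WT replicate 1 (FDR = 0.143) or 2 (FDR = 0.165) and without FosBcKO replicate 1 (FDR = 0.102) or 2 (FDR = 0.215), and the quasi-likelihood F-test did not make it (FDR = 0.136). Ier2, at 311 ± 54.9 CPM and 171 ± 40.4 CPM, did not overlap between the groups (9.99% of genes upward). By the exact test, at 1.99-fold it fell just short of the 2-fold minimum (log2 1.00, SE 0.24, FDR = 0.00772). By the quasi-likelihood F-test it missed the FDR threshold as well (FDR = 0.073). Ier2 passed the fold minimum without WT replicate 1 (log2 1.18) or FosBcKO replicate 1 (1.07) or 2 (1.05). Without a fold minimum the exact test called 2 of 5 genes, against 6.26% of all genes in either direction.

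The receptors were not called between FosBcKO and WT at 6 h. The log2 difference was 0.62 (95% interval -0.27 to 1.52) for Nr4a1, 0.37 (-0.53 to 1.27) for Nr4a2 and 0.86 (-0.23 to 1.95) for Nr4a3. For each receptor the FosBcKO libraries overlapped those of WT, and without FosBcKO replicate 2 the differences of Nr4a2 and Nr4a3 were -0.09 and -0.04. The median over the 5 was 0.86 and over all genes 0.00.

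Between the knockouts at 6 h, 2 of 5 genes were called lower in Egr1KO than in FosBcKO, where 2.28% of 15885 genes were. These were Nr4a2 (3.35-fold lower, log2 -1.74, SE 0.44, FDR = 0.0238) and Ier3 (2.99-fold lower, log2 -1.58, SE 0.34, FDR = 0.00301). In CPM, Nr4a1, Nr4a2, Nr4a3 and Ier3 were lower in each Egr1KO library than in any FosBcKO library, as were 12.2% of genes. The nearest libraries of Nr4a3 were close, at 28.3 CPM in Egr1KO and 29.0 CPM in FosBcKO. Divided by the TMM factors over 18 libraries, Nr4a1 and Nr4a3 overlapped, and Nr4a2 and Ier3 did not. Nr4a1 differed by -1.35 (95% interval -2.31 to -0.39, FDR = 0.0703), and was called by DESeq2 (FDR = 0.0455) and without FosBcKO replicate 3 (FDR = 0.00516). Nr4a3 differed by -1.15 (-2.31 to 0.01, FDR = 0.374). Without FosBcKO replicate 2 the differences of Nr4a1 and Nr4a3 were -0.79 and -0.26. Ier2 differed by 0.09 (-1.40 to 1.58), and by -1.004 without Egr1KO replicate 1. The quasi-likelihood F-test called none of the 5 (3 had an unadjusted p under 0.05). The Nr4a2 call was lost without Egr1KO replicate 1 (FDR = 0.0567) or 3 (FDR = 0.274) or FosBcKO replicate 2 (FDR = 0.327) or 3 (FDR = 0.0641), and that of Ier3 without FosBcKO replicate 1 (FDR = 0.0734) or 2 (FDR = 0.0764). The median over the 5 was -1.35 and over all genes -0.00.

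**Figure D3:**
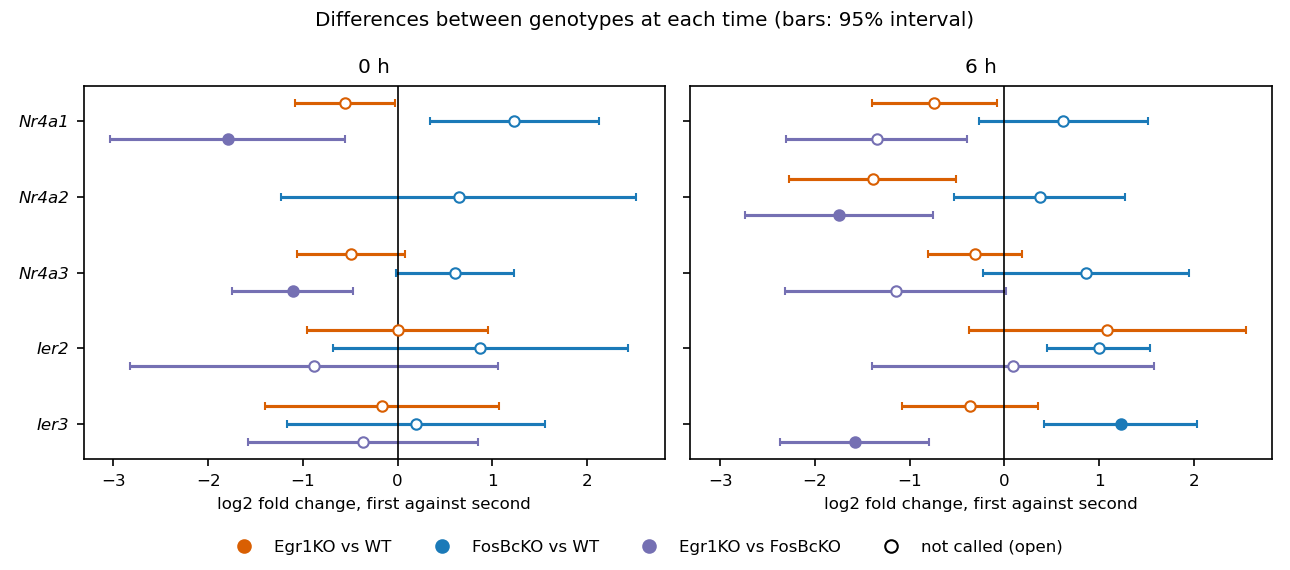
Log2 differences between genotypes at 0 h and at 6 h for each gene, the first-named genotype against the second, with 95% intervals from the quasi-likelihood fit; filled points were called by the exact test and open points were not. Of the 28 differences tested 5 are filled: Nr4a1 and Nr4a3 at 0 h, and Nr4a2 and Ier3 at 6 h, between Egr1KO and FosBcKO, and Ier3 between FosBcKO and WT at 6 h. Nr4a2 at 0 h has no point for the Egr1KO comparisons.

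Ordered by mean CPM, without TMM factors, Nr4a1, Nr4a2, Nr4a3 and Ier3 ran from FosBcKO 6 h through WT 6 h, Egr1KO 6 h, FosBcKO 0 h and WT 0 h to Egr1KO 0 h. For Nr4a1 (394, 283, 146, 75.6, 32.4 and 21.6 CPM) only the top neighbours, FosBcKO 6 h and WT 6 h, had overlapping libraries. For Nr4a3 (57.4, 35.6, 24.8, 14.1, 9.26 and 6.47 CPM) the top neighbours overlapped, as did FosBcKO 0 h and WT 0 h. Divided by the TMM factors over 18 libraries, WT 6 h and Egr1KO 6 h overlapped as well for Nr4a1 and Nr4a3. For Nr4a2 (9.05, 7.74, 2.57, 1.45, 0.901 and 0.195 CPM) FosBcKO 0 h overlapped both of its neighbours as well, and for Ier3 (62.3, 29.4, 19.4, 2.82, 2.45 and 2.14 CPM) the sole gap lay between the 6 h and the 0 h groups. Ier2 differed in that Egr1KO 6 h (303 ± 284 CPM) ranked above WT 6 h (171 CPM) and below FosBcKO 6 h (311 CPM). This rank rested on Egr1KO replicate 1 at 624 CPM, as the other Egr1KO 6 h libraries had 86.7 and 197 CPM. In the test at 6 h, which applies TMM factors, Ier2 was higher in Egr1KO than in FosBcKO by 0.09 on the log2 scale, not called. At 6 h the Egr1KO libraries overlapped both other groups, which did not overlap each other, and its 0 h groups, at 30.2, 16.7 and 16.4 CPM, all overlapped.

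Within the Nr4a family, the share of read pairs that came from each receptor shifted with injury. Nr4a1 made up 76.1% ± 1.30 (SD, n = 3) of the Nr4a pairs in WT at 0 h and 86.7% ± 0.813 at 6 h, without overlap. In Egr1KO its share went from 75.5% ± 4.95 to 83.8% ± 2.55, also without overlap. In FosBcKO it was 82.6% ± 2.60 at 0 h, above all WT and Egr1KO 0 h libraries, and 86.1% ± 2.56 at 6 h, with overlap. The share of Nr4a3 moved the other way, from 21.7% to 10.98% in WT, from 23.8% to 14.6% in Egr1KO and from 15.8% to 11.7% in FosBcKO. Nr4a2 gave 0.754% to 2.36% of the family's pairs in the group means. With 3 libraries against 3 an exact permutation test of such a share cannot go below p = 0.10, and none was run. The shares are of read pairs and are not corrected for transcript length, so they do not compare amounts of the 3 receptors.

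**Figure D4:**
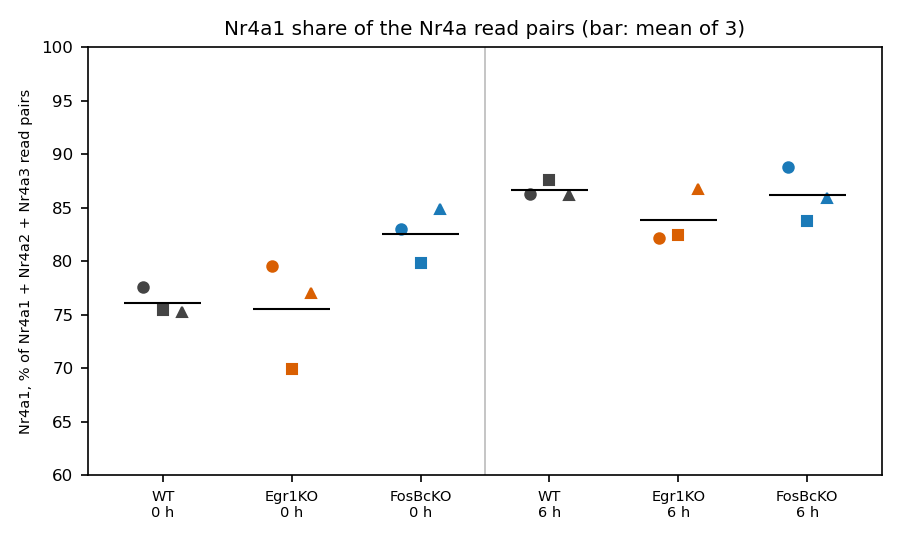
Nr4a1 read pairs as a percentage of all Nr4a1, Nr4a2 and Nr4a3 pairs in each library, with a bar at the mean of 3 and a vertical axis that starts at 60%. The WT libraries lie at 75.3% to 77.6% at 0 h and at 86.1% to 87.6% at 6 h, while the FosBcKO libraries of the 2 times overlap.

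The spread between libraries of a group was compared with counting error. Over the groups the coefficient of variation of Nr4a1 was 10.1% to 50.0%, where counting alone gives 1.48% to 6.51%. In the Egr1KO 0 h libraries the spread of Nr4a2 (59.1%) and of Nr4a3 (11.79%) did not exceed what counting alone gives (70.7% and 11.95%), and in WT at 0 h that of Nr4a2 (33.0% and 32.2%) and Nr4a3 (11.1% and 10.1%) was close to it. Over the 18 libraries the biological coefficient of variation fitted by edgeR was 53.0% for Ier2, where genes of its level had 20.9%, and it was larger than that of 73.8% of genes. For Nr4a1 it was 34.4% (21.0% at its level), for Nr4a3 33.9% (24.8%), for Ier3 37.0% (26.3%) and for Nr4a2 46.0% (45.8%).

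Nr4a1 and Nr4a3 followed each other closely from library to library. Over all 18 libraries Pearson's r of their log2 CPM was 0.978, and each was the gene most like the other among the 10983 genes with a mean of at least 5 CPM. All libraries share the step from 0 h to 6 h, which alone raises such an r, but r was 0.972 over the 9 libraries at 0 h and 0.905 over the 9 at 6 h, and 0.891 for deviations from the group means. By these deviations Nr4a1 had rank 1 among the genes most like Nr4a3, while Nr4a3 had rank 4 among those most like Nr4a1. The pair of Ier genes differed: r of Ier2 and Ier3 was 0.891 over the 18 libraries, 0.148 at 0 h, 0.252 at 6 h and 0.058 for deviations. Between families, r of Nr4a1 was 0.726 with Ier2 and -0.041 with Ier3 at 0 h, and 0.021 and 0.737 at 6 h. Nr4a2, below 5 CPM, had an r with Nr4a1 of 0.583 at 0 h and 0.796 at 6 h. For deviations from the group means, r of Nr4a1 was lower, at 0.297 with Ier2, 0.039 with Ier3 and 0.282 with Nr4a2. The gene most like Ier2 was ENSMUSG00000052837 (r = 0.989), and that next to Nr4a1 and Nr4a3 was ENSMUSG00000031765 (r = 0.944 and 0.942). These values describe the libraries, which share genotypes and times, and carry no test.

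**Figure D5:**
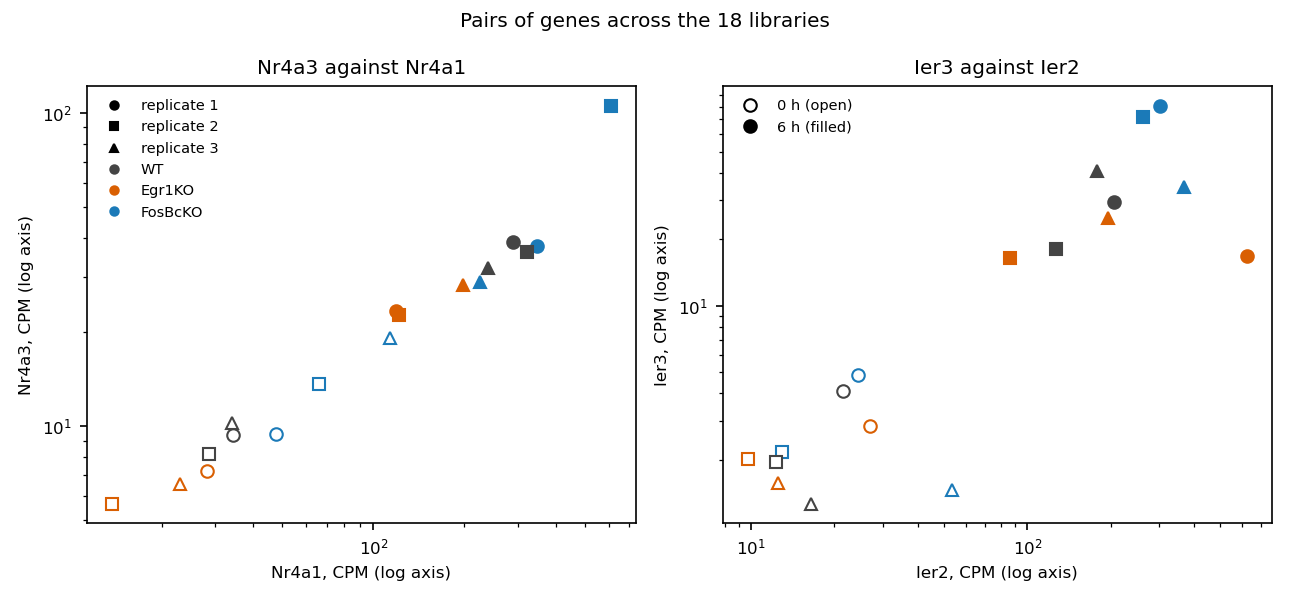
Nr4a3 against Nr4a1 and Ier3 against Ier2, in CPM on log axes, 1 point per library, open at 0 h and filled at 6 h, colored by genotype. The Nr4a points run along a line at both times (r = 0.972 and 0.905), while the Ier points separate by time with little order within a time (r = 0.148 and 0.252).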

How the data were processed

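Per the study's methods, LEC RNA was made into ribodepleted, stranded, paired-end libraries, aligned with Hisat2 and counted by HTSeq-count (union mode). The authors deposited these counts, whole read pairs for each Ensembl gene, without normalizing them. The methods name GRCm38 and the submitters' processing notes GRCm39, so no coordinates are given, and the strand setting of the counting is not given in the sources used here. HTSeq's summary lines, 34.4% to 48.0% of pairs, were left out. Of the 55416 IDs, 0 matched the RefSeq table at hand, and only the 5 genes, all described whatever their values, were identified. Lists of other early-response genes, partners and markers are not analysed here. Genes and lists were chosen with earlier results of these data known.

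Tests used edgeR 4.0.16 in R 4.3.3 on all genes passing filterByExpr, with TMM scaling and robust dispersions. The quasi-likelihood F-test was used for 6 h against 0 h (named by the study for WT and extended here to the knockouts), for their mean and for the 3 interactions over 18 libraries, and the exact test for genotypes, each on the 6 libraries of the contrast. SEs and 95% intervals came from the quasi-likelihood fit. The comparison of Egr1KO with FosBcKO was added here. Likeness was Pearson's r of log2 CPM (TMM scaled, prior count 2), and the genes most like each were named by rank, other than the 5 only by ID. Alternatives were DESeq2 1.42.0 and its size factors, no filter or at least 10 counts in 3 libraries, no fold minimum, non-robust dispersions, scaling without the 10 most abundant genes, the other edgeR test, all 18 libraries in 1 fit, a replicate block and leaving out each library. The code was tested on simulated data.

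Whether replicate numbers pair the libraries was checked by correlating same-numbered libraries' deviations from their group means over genes. In WT all 3 pairs of 0 h and 6 h libraries exceeded 0.1 (0.102 to 0.247), so the WT numbers were taken as paired, from these data and not from a label. In Egr1KO (1 of 3) they were not, nor were they between genotypes at a time (4 of 18). FosBcKO fell short of this rule (2 of 3). Its same-numbered pairs (0.0776 to 0.181) still all lay above its differently numbered pairs (highest 0.0567), so its pairing is undecided. The main tests of 6 h against 0 h used no pairing in any genotype.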

Additional observations from a re-analysis of the deposited data

How the results depend on the processing

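The 5 calls for WT and the 5 for the change averaged over genotypes were kept by 5 of 5 genes under every alternative and without every library, and no alternative gave a call for Egr1KO against WT at 0 h. Without the filter on low counts, 4 of 5 genes were called over time in Egr1KO and 2 of 5 in FosBcKO (5 each with the filter). Calls were then 0 between the knockouts at 0 h, 0 for FosBcKO against WT at 6 h and 1 between the knockouts at 6 h. The interaction of Egr1KO with WT had 1. More genes enter both the adjustment and the dispersion fit there, and the part of either was not tested. For Ier3 in FosBcKO over time the SE was 0.26 with no filter and 0.50 with it. The quasi-likelihood F-test and the fit over all 18 libraries each called 0 in the same 3 genotype comparisons, where the exact test called 2, 1 and 2. RLE size factors gave 4 of 5 calls for FosBcKO over time, without Nr4a3. DESeq2, and dispersions without the robust option, each called 1 gene for FosBcKO against WT at 0 h. With no fold minimum the exact test gave 2 calls for FosBcKO against WT at 6 h. Over all genes the quasi-likelihood F-test called 437 for FosBcKO against WT at 6 h, where the exact test called 874, and 159 against 397 between the knockouts. Without single libraries the number of genes called ranged from 3 to 5 for Egr1KO over time, 2 to 5 for FosBcKO over time, 0 to 1 for FosBcKO against WT at 0 h, for Egr1KO against WT at 6 h and for FosBcKO against WT at 6 h, and 0 to 2 between the knockouts at 0 h and at 6 h.

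With the replicate number as a block, the WT calls, where the numbers were taken as paired, did not change, nor did those of Egr1KO. In Egr1KO and between genotypes the check did not show pairing by number, and in FosBcKO it was undecided. Whether pools with the same number held capsules of the same mice is not given in the sources used here. The block gave 3 of 5 calls for FosBcKO over time, where Nr4a1 (FDR = 0.123) and Nr4a3 (FDR = 0.133) lost the call. Between the knockouts at 0 h and at 6 h and for FosBcKO against WT at 6 h the blocked quasi-likelihood F-test called 0, as that test did with no block. The block turned the sign of 3 uncalled values, to -0.42 for Ier2 between the knockouts at 6 h, -0.04 for the Nr4a3 interaction of FosBcKO with WT and 0.17 for that of Egr1KO with FosBcKO.

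Other sign changes were of uncalled values. Ier2 in Egr1KO against WT at 0 h was 0.004 with no filter, 0.0026 by the quasi-likelihood F-test and 0.0267 over 18 libraries, and the Nr4a3 interaction between the knockouts was 0.0239 with no filter and 0.0147 without the 10 most abundant genes. Without single libraries, log2 values crossed 0 within these ranges. At 0 h they were -0.55 to 0.28 (Ier2) and -0.48 to 0.41 (Ier3) for Egr1KO against WT, -0.41 to 1.15 (Nr4a2) and -0.43 to 0.80 (Ier3) for FosBcKO against WT, and -0.66 to 0.27 (Ier3) between the knockouts. At 6 h they were -0.0384 to 1.55 (Ier2) for Egr1KO against WT, -0.091 to 0.63 (Nr4a2) and -0.0416 to 1.19 (Nr4a3) for FosBcKO against WT, and -1.004 to 0.55 (Ier2) between the knockouts. For interactions they were -0.082 to 1.58 (Ier2) and -0.85 to 0.0592 (Ier3) for Egr1KO with WT, -0.85 to 0.69 (Nr4a2), -0.72 to 0.49 (Nr4a3) and -0.35 to 0.77 (Ier2) for FosBcKO with WT, and -0.37 to 0.85 (Nr4a3) and -0.11 to 1.55 (Ier2) between the knockouts. The causes were not tested. Depth limits mainly Nr4a2, with 1 to 29 read pairs per 0 h library.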
